A study of Mus musculus with 6 samples.

Results

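The genes described here encode cytosolic sulfotransferases of the Sult family, with Papss2, which supplies their sulfate donor, as expressed in mouse liver. They were taken from a list of 10 symbols (9 Sult genes and Papss2). A probe set counted when the array annotation gave it exactly 1 symbol and that symbol was on the list. All 10 genes were found, each with 1 probe set, among 22180 genes measured the same way. Liver RNA of male C57BL/6N mice aged 2 months was hybridised to Affymetrix whole-transcript arrays, 1 array per sample. The knockout group (3 arrays, replicates 1 to 3) came from mice labelled cGK1-KO, lacking cGMP-dependent protein kinase 1, the product of Prkg1. The series design adds that these mice carried a smooth muscle rescue, so the kinase was lacking in other tissues; the promoter that drives the rescue is not stated in the labels. The other group (3 arrays, replicates 1 to 3) is called wild type in the sample labels and control in the series design; whether it shares any allele with the knockout mice is not stated either. The comparison asks how liver expression depends on the kinase in tissues other than smooth muscle.

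Cytosolic sulfotransferases move a sulfonate group from the donor PAPS (3'-phosphoadenosine 5'-phosphosulfate) to a hydroxyl or amino group of a small molecule, which makes the product more soluble in water and easier to excrete. Genes of the Sult1 family act mainly on phenols, catecholamines, thyroid hormones and oestrogens, and those of the Sult2 family on hydroxysteroids, cholesterol and bile acids. In mouse liver several of them, among them Sult2a1, Sult2a2 and Sult3a1, are known for higher expression in females, and the family responds to nuclear receptors and to the pattern of growth hormone secretion.

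All values are log2 expression after RMA, the authors' array normalization, and a difference is knockout minus control in log2 units with the standard error (SE) of the limma model. The median of all values in the table was 3.14, and array medians lay between 3.11 and 3.16. A gene whose mean over the 6 arrays lay at or under that median is called dim, and the size of a difference at such levels is uncertain, because much of the signal can be background. Prkg1 itself was dim, at 2.95 to 3.32 on the 6 arrays (difference 0.11, SE 0.15, limma adjusted p = 0.837), and does not check the genotype labels. The tissue label was borne out by hepatocyte markers: all 8 of the list, among them the albumin gene Alb, were far above the table median, with means over the 6 arrays from 8.40 to 13.4. Across genes the 3 knockout arrays spread more than the controls, with a median standard deviation (SD) of a gene of 0.193 against 0.146. In limma, 0 of 22180 genes (0.0%) passed an adjusted p of 0.05, and 2334 genes (10.5%) lay at an unadjusted p under 0.05.

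In the knockout livers, Sult2a8 and Sult5a1 were measured at lower levels than in the controls and Sult3a1 and Sult1d1 at higher levels, by 1.45- to 2.01-fold, while the abundant phenol sulfotransferase gene Sult1a1 and the PAPS synthase gene Papss2 differed by less than their spread. Of the 10 genes, 0 passed an adjusted p of 0.05, and these 4 lay at an unadjusted p under 0.05 (10.5% of all genes did). Knockout and control arrays did not overlap in 5 of the 10, against 16.7% of all genes: 3 were higher (7.61% of all genes) and 2 lower (9.14% of all genes). The fifth of these genes was Sult1c2. For Sult1c2 and Sult5a1 the separation was a matter of 0.021 and 0.0017 log2 units, and it ended for Sult1c2 after centring on array medians, which left 4 of 10 separated against 16.7% of all genes, and for both after a further quantile normalization, which left 3 of 10 separated against 16.1% of all genes. The median of the 10 differences was 0.18, with 7 of 10 positive, against a median of 0.0011 over all genes. Because the 10 genes were chosen with earlier results of these data known, these comparisons with all genes are descriptive only. In these bulk samples, fewer cells of a type and less RNA per cell cannot be told apart.

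**Figure D1:**
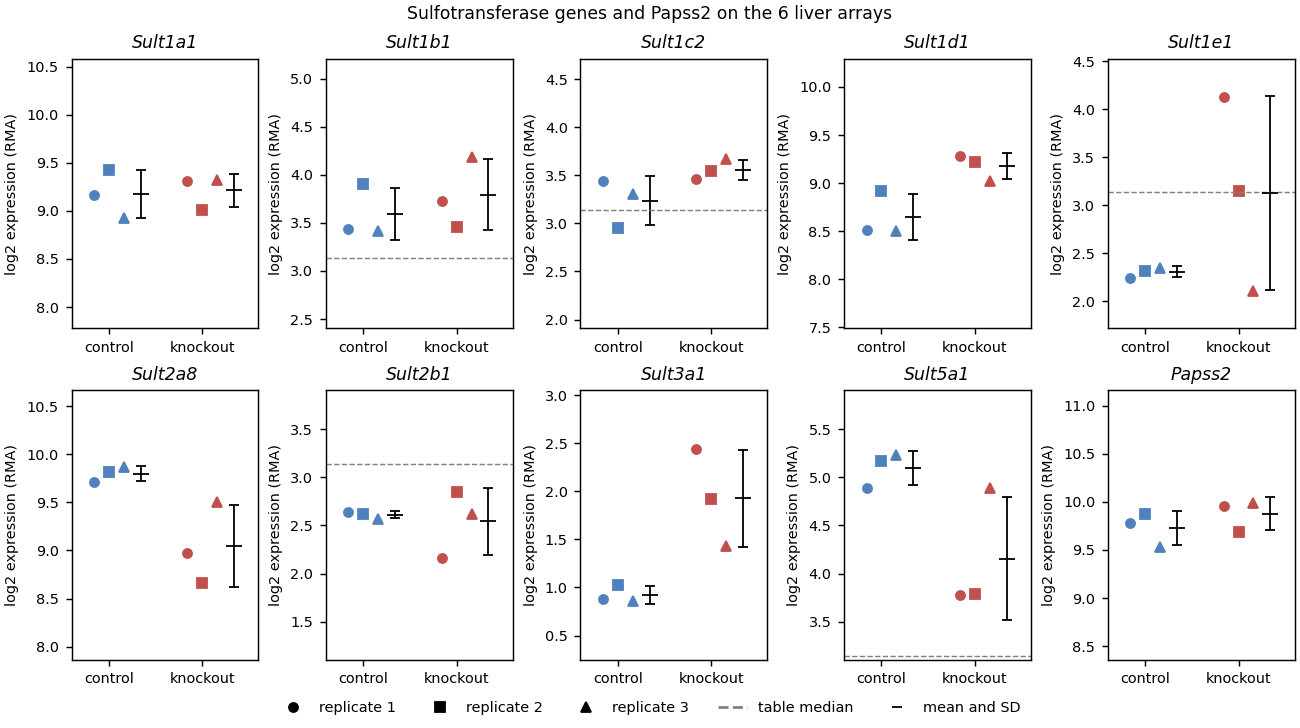
Log2 RMA expression of Sult1a1, Sult1b1, Sult1c2, Sult1d1, Sult1e1, Sult2a8, Sult2b1, Sult3a1, Sult5a1 and Papss2 on each array, controls in blue and knockouts in red, with a marker shape per replicate number, the group mean with its SD (n = 3) in black and the table median as a dashed line where it falls in the panel. Each panel spans the same height in log2 units; Sult2a8 and Sult5a1 lie lower in knockout replicates 1 and 2, with replicate 3 close to the controls, and Sult1e1 is raised only in knockout replicates 1 and 2.

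Sult2a8, a hydroxysteroid sulfotransferase of mouse liver that acts on bile acids, was among the bright genes of the table, at percentile 98.8 of all means. It read 8.97, 8.66 and 9.50 in knockout replicates 1 to 3 and 9.71, 9.82 and 9.87 in control replicates 1 to 3. Every knockout array lay under every control array, with a gap of 0.21, and the knockout arrays spread over 0.85 where the controls spread over 0.16. The group means were 9.04 ± 0.43 and 9.80 ± 0.080 (SD, n = 3), a difference of -0.76 (SE 0.20, 95% confidence interval -1.22 to -0.30), or 1.69-fold lower, with a limma adjusted p of 0.299 and an unadjusted p of 0.00459. By exact permutation p was 0.1, the smallest value possible with 3 arrays in each group. Without knockout replicate 3 the difference was -0.99 (limma adjusted p = 0.0508), and without knockout replicate 2 it was -0.56.

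Sult5a1, a member of the family whose substrates are little known, was also lowest in knockout replicates 1 and 2, at a lower level of the table. Its values were 3.78, 3.79 and 4.89 in knockout replicates 1 to 3 and 4.89, 5.17 and 5.23 in control replicates 1 to 3. Knockout replicate 3 was level with the lowest control, and the other knockout arrays lay more than 1 log2 unit below it. The difference was -0.95 (SE 0.28, 95% confidence interval -1.58 to -0.32), 1.93-fold lower, with a limma adjusted p of 0.321 and an exact permutation p of 0.1. Without knockout replicate 3 it was -1.32 with a limma adjusted p of 0.0172, which passed the threshold; without that array 66 of 22180 genes (0.298%) passed.

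Sult3a1, which transfers sulfonate to amines, was measured at the bottom of the table, with a mean at percentile 4.96 of all genes. It read 2.44, 1.92 and 1.43 in knockout replicates 1 to 3 and 0.88, 1.03 and 0.86 in control replicates 1 to 3. The knockout arrays all lay above the controls, with a gap of 0.40, and all 6 values were under the table median. The difference was 1.01 (SE 0.23, 95% confidence interval 0.49 to 1.52), 2.01-fold on these dim values, with a limma adjusted p of 0.237, the smallest of the 10 genes, and an exact permutation p of 0.1. Without knockout replicate 3 it was 1.25 with a limma adjusted p of 0.0376, so Sult3a1 and Sult5a1 were the 2 genes of the 10 that passed without that array. Without knockout replicate 1 it was 0.75.

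Sult1d1, which acts on catecholamines such as dopamine, was bright, at percentile 98.3. It read 9.28, 9.22 and 9.02 in knockout replicates 1 to 3 and 8.51, 8.92 and 8.50 in control replicates 1 to 3. Control replicate 2 came within 0.10 of the lowest knockout array, and the groups did not overlap. The difference was 0.53 (SE 0.16, 95% confidence interval 0.18 to 0.89), 1.45-fold higher, with a limma adjusted p of 0.322 and an exact permutation p of 0.1. Leaving out each array in turn gave 0.46 to 0.67.

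Sult1e1, the oestrogen sulfotransferase gene, varied more among the knockout arrays than any other of the 10 genes. It read 4.13, 3.15 and 2.11 in knockout replicates 1 to 3 and 2.24, 2.32 and 2.35 in control replicates 1 to 3. Knockout replicate 1 was well above the table median, knockout replicate 2 at it, and knockout replicate 3 under every control. The range was 2.02 log2 units within the knockout group and 0.11 within the controls. The difference of 0.82 (SE 0.40, 95% confidence interval -0.09 to 1.73) had a limma adjusted p of 0.514 and an exact permutation p of 0.4. It was 1.33 without knockout replicate 3 and 0.32 without knockout replicate 1.

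The promoters of these 5 genes are shown because the genes differed most between the groups or among the knockout arrays. The windows come from RefSeq (GRCm38.p6), where all 10 genes had an entry, and hold 250 bases before the annotated start and 50 from it on; for the 4 genes with 2 listed starts the one listed first was used. Each is written 5' to 3' on the strand of its gene, and capitals mark matches, on either strand, to 3 motifs: AGGTCA, the core element of nuclear receptors, TTCNNNGAA, the spaced palindrome of STAT factors, and TTGCNNAA, the core of C/EBP sites.
Sult2a8: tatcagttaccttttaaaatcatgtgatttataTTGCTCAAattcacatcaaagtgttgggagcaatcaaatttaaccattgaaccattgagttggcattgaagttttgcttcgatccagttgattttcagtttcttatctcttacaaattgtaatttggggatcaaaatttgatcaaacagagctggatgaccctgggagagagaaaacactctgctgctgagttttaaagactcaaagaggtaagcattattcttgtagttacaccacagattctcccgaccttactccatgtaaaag
Sult5a1: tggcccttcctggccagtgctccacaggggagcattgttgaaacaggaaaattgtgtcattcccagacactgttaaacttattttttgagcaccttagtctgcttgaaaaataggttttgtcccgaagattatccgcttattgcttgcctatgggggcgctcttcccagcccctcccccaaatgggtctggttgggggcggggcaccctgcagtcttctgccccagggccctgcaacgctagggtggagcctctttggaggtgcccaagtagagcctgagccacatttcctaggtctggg
Sult3a1: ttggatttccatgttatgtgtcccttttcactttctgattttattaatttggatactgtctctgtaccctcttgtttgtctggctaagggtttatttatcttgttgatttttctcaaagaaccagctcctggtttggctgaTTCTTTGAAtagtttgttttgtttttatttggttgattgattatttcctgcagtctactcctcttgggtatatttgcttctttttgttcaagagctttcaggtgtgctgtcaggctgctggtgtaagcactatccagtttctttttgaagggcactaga
Sult1d1: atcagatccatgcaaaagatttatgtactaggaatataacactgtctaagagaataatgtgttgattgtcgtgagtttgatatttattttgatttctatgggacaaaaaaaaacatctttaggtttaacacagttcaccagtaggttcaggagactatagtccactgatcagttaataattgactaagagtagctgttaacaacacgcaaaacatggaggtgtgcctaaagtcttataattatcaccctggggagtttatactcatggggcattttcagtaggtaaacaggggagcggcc
Sult1e1: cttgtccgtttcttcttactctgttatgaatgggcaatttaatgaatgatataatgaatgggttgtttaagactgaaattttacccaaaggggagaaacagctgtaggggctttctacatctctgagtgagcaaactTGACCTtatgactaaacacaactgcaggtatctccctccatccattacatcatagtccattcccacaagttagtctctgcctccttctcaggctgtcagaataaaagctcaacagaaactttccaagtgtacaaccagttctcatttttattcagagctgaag
The Sult2a8 window (chr7:14446538-14446837, minus strand) held TTGCTCAA, a TTGCNNAA match, starting 217 bases before the start. The Sult3a1 window (chr10:33857472-33857771, plus strand) held TTCTTTGAA, a TTCNNNGAA match, starting 109 bases before it. The Sult1e1 window (chr5:87591562-87591861, minus strand) held an AGGTCA match on the opposite strand, starting 113 bases before it. The windows of Sult5a1 (chr8:123158231-123158530, minus strand) and Sult1d1 (chr5:87568957-87569256, minus strand) held none of these letters. Over the 10 genes, AGGTCA was found in 2 (Sult1b1 and Sult1e1), TTGCNNAA in 2 (Sult1c2 and Sult2a8) and TTCNNNGAA in 1. Of 27025 windows of 300 bases from all listed genes, 16% held AGGTCA, 10.8% TTGCNNAA and 8.47% TTCNNNGAA. No match overlapped another. The base composition of the windows differed too: 36.0% of bases were G or C for Sult2a8, 54.7% for Sult5a1, 37.3% for Sult3a1, 37.0% for Sult1d1 and 40.0% for Sult1e1.

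The remaining phenol sulfotransferase genes had no unadjusted p under 0.05 in limma. Sult1a1, which conjugates simple phenols and many drugs, was bright (percentile 98.6), at 9.31, 9.01 and 9.32 in knockout replicates 1 to 3 and 9.17, 9.43 and 8.93 in control replicates 1 to 3. The groups overlapped fully, and the difference of 0.04 (SE 0.17, 95% confidence interval -0.33 to 0.41, limma adjusted p = 0.952) bounds a change in either direction at about 0.41 log2 units. Sult1b1, which acts on thyroid hormones and small phenols, read 3.73, 3.46 and 4.19 in the knockouts and 3.44, 3.91 and 3.42 in the controls, just above the table median. Its groups overlapped, with a difference of 0.20 (SE 0.21, 95% confidence interval -0.27 to 0.68, limma adjusted p = 0.771) that was 0.0041 without knockout replicate 3. Sult1c2, a member of the phenol branch, read 3.46, 3.55 and 3.67 in the knockouts and 3.44, 2.95 and 3.31 in the controls. The lowest knockout array was level with the highest control, and the difference was 0.33 (SE 0.16, 95% confidence interval -0.03 to 0.68, limma adjusted p = 0.507).

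Sult2b1, which sulfates cholesterol and is best known from skin, was dim on all 6 arrays. It read 2.16, 2.85 and 2.62 in knockout replicates 1 to 3 and 2.64, 2.62 and 2.57 in the controls. Knockout replicates 1 and 2 lay on opposite sides of the controls, and the difference was -0.07 (SE 0.18, 95% confidence interval -0.47 to 0.33, limma adjusted p = 0.919). Papss2, the enzyme that makes PAPS from sulfate and ATP, was bright (percentile 99.1), at 9.96, 9.69 and 9.99 in the knockouts and 9.78, 9.87 and 9.53 in the controls. Its groups overlapped, with a difference of 0.15 (SE 0.15, 95% confidence interval -0.19 to 0.49, limma adjusted p = 0.757).

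The 10 genes thus spread over the whole range of the table. Sult1a1, Sult1d1, Sult2a8 and Papss2 had means 5.77 to 6.66 log2 units above the table median, Sult5a1 lay 1.49 above it, Sult1b1 and Sult1c2 lay 0.55 and 0.26 above it, and Sult1e1, Sult2b1 and Sult3a1 were dim. These are levels of single probe sets, so they place a gene against background and do not rank transcripts. Among the 7 genes above the table median, 4 had groups that did not overlap, where 20.4% of all such genes did; among the 3 dim ones it was 1, where 11.6% of all dim genes did.

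**Figure D2:**
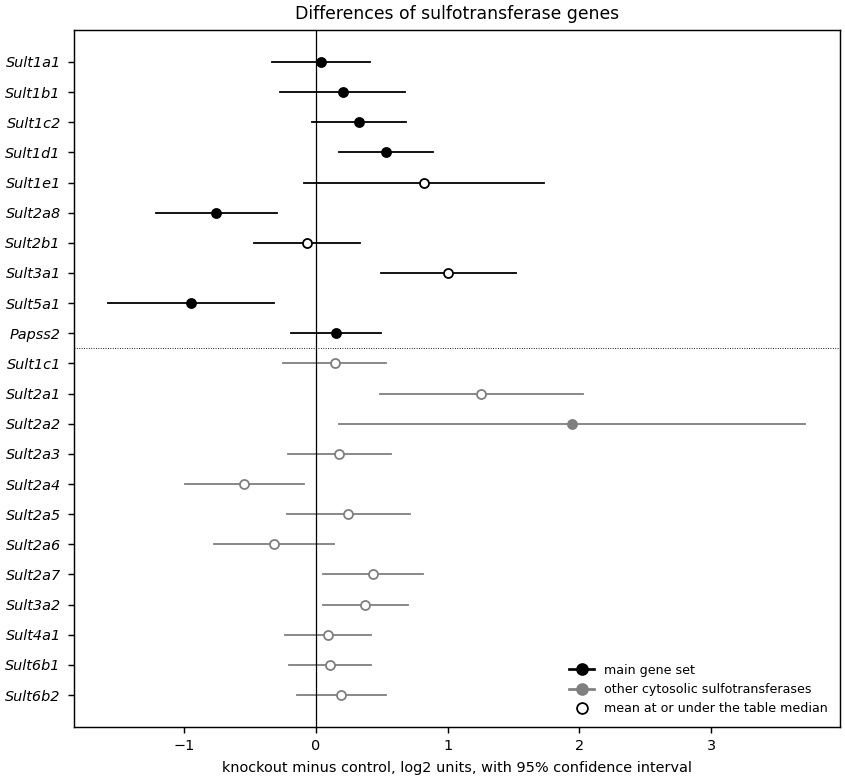
Difference between knockout and control in log2 units (points) with its 95% confidence interval from the limma model (lines; n = 3 arrays per group), for the 10 genes in black and 12 other cytosolic sulfotransferase genes in grey, with open points for genes whose mean lay at or under the table median. The intervals of Sult1d1, Sult3a1, Sult2a1, Sult2a2, Sult2a7 and Sult3a2 lie above 0 and those of Sult2a8, Sult5a1 and Sult2a4 below it, before any adjustment for the number of genes tested.

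The other members of the Sult2a and Sult3a groups are the closest relatives of Sult2a8 and Sult3a1. Of the 7 other Sult2a genes, 5 had positive differences where that of Sult2a8 was negative. Sult2a2, a hydroxysteroid sulfotransferase gene, read 6.47, 3.81 and 2.53 in knockout replicates 1 to 3 and 2.49, 2.52 and 1.97 in control replicates 1 to 3. Knockout replicate 1 stood far above the other arrays, and knockout replicate 3 was level with the highest control. The difference was 1.94 (SE 0.78, limma adjusted p = 0.429), and 0.84 without knockout replicate 1 against 2.81 without knockout replicate 3. Its neighbour Sult2a1, which acts on dehydroepiandrosterone, read 3.52, 2.21 and 1.95 in the knockouts and 1.24, 1.37 and 1.30 in the controls. All 3 knockout arrays lay above the controls, with only knockout replicate 1 above the table median (difference 1.26, SE 0.34, limma adjusted p = 0.300). Without knockout replicate 1 it was 0.77. Sult2a4 and Sult2a7 were dim and differed by -0.54 and 0.43, without overlap between the groups (limma adjusted p = 0.398 and 0.422), and the difference of Sult2a4 was -0.33 without knockout replicate 1 and that of Sult2a7 0.28 without knockout replicate 3. Sult2a3 (0.18), Sult2a5 (0.25) and Sult2a6 (-0.32) overlapped between the groups. Sult3a2, next to Sult3a1 in the genome, read 1.65, 1.51 and 1.25 in the knockouts and 1.09, 1.04 and 1.17 in the controls, dim on all 6 arrays, with a difference of 0.37 (SE 0.14, limma adjusted p = 0.412). Sult1c1, the neighbour of Sult1c2, differed by 0.14 (SE 0.17, limma adjusted p = 0.807).

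Relatives within these groups are similar in sequence, and a transcript of one can add signal to the probe sets of another; how far this applies was not tested. In the RefSeq gene table, Sult1b1, Sult1d1 and Sult1e1 are direct neighbours on chromosome 5, with 0 protein-coding genes between them. Their differences were 0.20, 0.53 and 0.82, and knockout replicate 3 was the highest knockout array for Sult1b1 and the lowest for both Sult1d1 and Sult1e1. Sult2a8 lies in the array of Sult2a genes on chromosome 7, with Sult2a6 and Sult2a7 as its direct neighbours.

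Knockout replicate 3 was nearest to the control mean of the 3 knockout arrays for 6 of the 10 genes (Sult1d1, Sult1e1, Sult2a8, Sult2b1, Sult3a1 and Sult5a1), and for 33.5% of all genes. The order of the knockout arrays was not the same for the higher and the lower genes, nor among the higher genes. Knockout replicate 1 was the highest array for Sult3a1, Sult1d1, Sult1e1, Sult2a1 and Sult2a2. Knockout replicate 3 was the highest array for Sult1b1, Sult1c2 and Papss2. For Sult2a8 the lowest array was knockout replicate 2, and for Sult5a1 knockout replicates 1 and 2 were level.

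**Figure D3:**
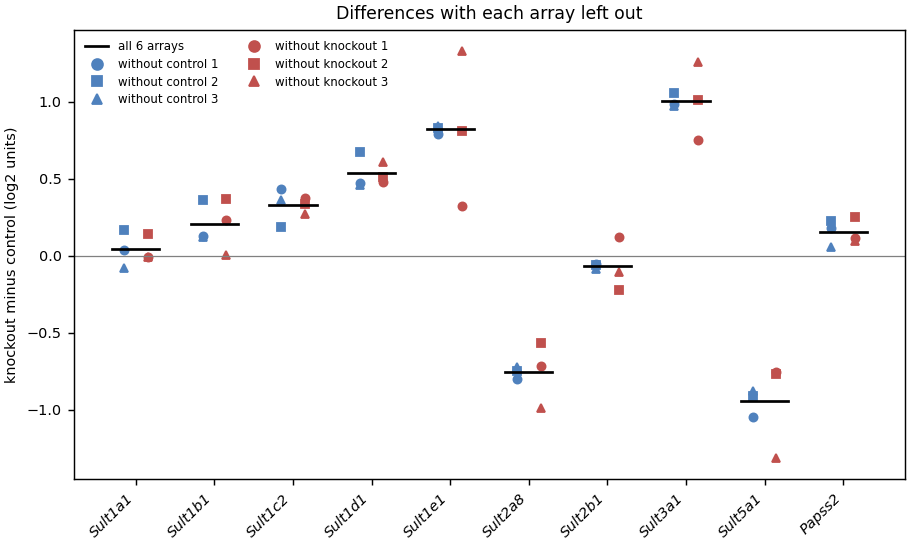
Difference between knockout and control in log2 units for each of the 10 genes with all 6 arrays (black bar) and with each array left out (blue, a control left out; red, a knockout left out; marker shape gives the replicate number). Leaving out knockout replicate 3 moved Sult2a8 to -0.99, Sult5a1 to -1.32, Sult1e1 to 1.33 and Sult3a1 to 1.25, the outermost value for each, while Sult1a1 and Sult2b1 crossed 0.

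The signals of 15 genes known as male-biased in mouse liver, such as the elongase gene Elovl3, summed to a log2 level of 11.8, 11.4 and 13.2 in knockout replicates 1 to 3 and to 13.4 to 13.6 in the controls. Of the 15, 14 had negative differences, with a median of -1.53 and 0 past an adjusted p of 0.05. Like Sult2a8 and Sult5a1, the sum was lowest in knockout replicates 1 and 2, and knockout replicate 3 was next to the controls. Bright genes weigh most in such a sum. The median level of the list was 5.62, 5.39 and 6.81 in knockout replicates 1 to 3 and 8.22 to 8.88 in the controls. Elovl3 read 6.78 in knockout replicate 3 and 8.62 to 9.60 in the controls, so not all of the list was next to the controls there. The signals of 14 female-biased genes, such as the cytochrome P450 gene Cyp2b9, summed to 11.2, 11.3 and 9.54 in knockout replicates 1 to 3 and to 9.32 to 10.3 in the controls, with 13 of 14 differences positive, a median of 0.41 and 0 past an adjusted p of 0.05. Control replicate 2 held the highest of the control sums, above knockout replicate 3, much of it from Cyp17a1, which read 9.94 there. The median level of the list was 5.26, 4.66 and 4.71 in knockout replicates 1 to 3 and 3.31 to 3.90 in the controls. So by the median, knockout replicate 3 lay above every control. Knockout replicates 1 and 2 were high in the female-biased sum, as they were for Sult2a2 and Sult1e1. They were level with each other in that sum, where Sult2a2 differed by more than 2 log2 units between them. The lists hold 0 of the 10 genes. These likenesses rest on the order of 3 knockout arrays. The part of sex-biased expression in the differences of the sulfotransferase genes was not tested.

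**Figure D4:**
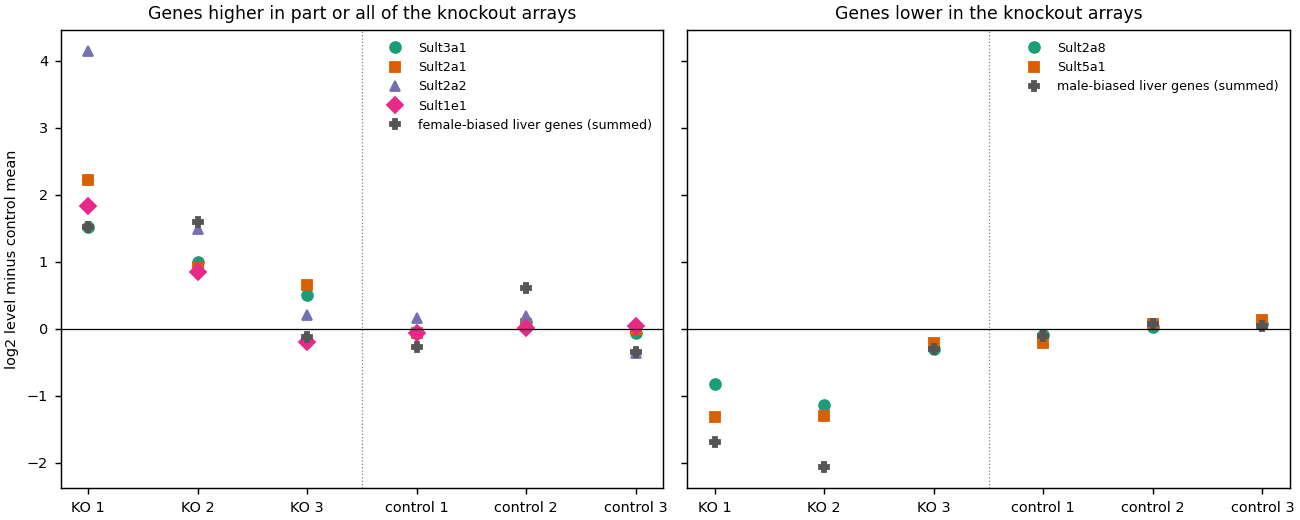
Log2 level on each array minus the mean of the 3 control arrays, for Sult3a1, Sult2a1, Sult2a2, Sult1e1 and the summed signal of 14 female-biased liver genes (left) and for Sult2a8, Sult5a1 and the summed signal of 15 male-biased liver genes (right); KO stands for knockout, and the dotted line parts the groups. Knockout replicate 1 holds the highest value of each of the 4 sulfotransferase genes on the left, and knockout replicate 3 lies close to the controls on the right.

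Of markers of other cell types and states, all 11 of 11 macrophage and Kupffer cell markers had positive differences, with a median of 0.84, and their summed log2 level was 9.69 to 10.99 in the knockouts against 9.27 to 9.39 in the controls, highest in knockout replicate 2, where Sult2a8 was lowest. Acute phase genes were positive in 17 of 19, with a median of 0.69 and summed levels of 15.1 to 15.7 against 14.5 to 14.6. Hepatocyte markers had 3 positive and 5 negative differences, and their summed level was 14.81 to 14.82 in the knockouts against 14.86 to 14.94 in the controls. The part of macrophage content, of the acute phase state and of hepatocyte share in the differences of the sulfotransferase genes was not tested. Intestine also expresses some of these genes. Of 6 enterocyte markers 4 were dim, among them the defining sucrase gene Sis at 1.79 to 1.99 on all 6 arrays. The list's summed level was 11.92 to 12.19 in the knockouts against 12.19 to 12.37 in the controls. Apoa4, which hepatocytes express as well, carried that sum. Of the 6 differences 5 were negative, with a median of -0.12. Fabp2, the other bright marker, differed by -0.75 without overlap (limma adjusted p = 0.221). Of the 9 neutrophil markers 7 were positive (median 0.21, summed level 6.10 to 6.18 against 5.90 to 5.94, 6 dim), and of the 9 stellate cell markers 8 were (median 0.13, 9.35 to 10.33 against 9.23 to 9.56, 0 dim). Sinusoidal endothelial markers had a median of 0.17 (6 of 7 positive), cholangiocyte markers 0.10 (3 of 5), T and B cell markers 0.15 (6 of 6), adipocyte markers -0.02 (2 of 5) and pancreas markers 0.0026 (3 of 5), with 0 past an adjusted p of 0.05 in limma in any of the lists.

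The other steps of sulfation were described by 7 lists holding 90 measured genes, of which 0 passed an adjusted p of 0.05 (0.0% of all genes did), 6 were higher and 10 lower at an unadjusted p under 0.05 (5.06% and 5.46% of all genes), and the median difference was -0.03. Among 12 other cytosolic sulfotransferase genes, 10 had positive differences, with a median of 0.18, and 11 were dim; apart from those above, Sult4a1 differed by 0.09, Sult6b1 by 0.11 and Sult6b2 by 0.19.

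The list for making, breaking down or moving PAPS had a median difference of -0.01, with 3 of 7 positive. Its summed log2 level was 8.14 to 8.28 in the knockouts against 8.31 to 8.53 in the controls. Nudt7, the brightest gene of the list, weighs most in that sum. Papss1, the second PAPS synthase gene, read 3.62, 3.45 and 3.25 in the knockouts and 3.61, 3.55 and 3.20 in the controls, so its groups overlapped fully (difference -0.01, SE 0.16, limma adjusted p = 0.991). The largest statistics were those of Nudt7 (-0.46, limma adjusted p = 0.407) and Nudt19 (-0.23), which encode hydrolases of coenzyme A rather than enzymes of PAPS, and of Slc35b2, the PAPS transporter of the Golgi (0.15). Nudt7 also stands in the male-biased list. The phosphatase genes Bpnt1 and Bpnt2, which clear the by-product of the sulfonate transfer, differed by -0.15 and 0.05.

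Sulfate in the liver comes largely from the oxidation of cysteine. Of 12 genes of that supply 9 had negative differences, with a median of -0.06. Csad, which instead turns cysteine sulfinate to hypotaurine, the precursor of taurine, read 7.07, 6.41 and 8.50 in knockout replicates 1 to 3 and 8.49, 8.64 and 8.64 in control replicates 1 to 3. Knockout replicates 1 and 2 were far below the controls, and knockout replicate 3 was among them, the arrangement also seen for Sult5a1. The difference was -1.26 (SE 0.42, limma adjusted p = 0.366), and -1.84 with an adjusted p of 0.0123 without knockout replicate 3. Cbs, the entry enzyme of transsulfuration, differed by -0.39 (SE 0.15, limma adjusted p = 0.413) and Mpst, a sulfurtransferase, by -0.18, both without overlap. The sulfite oxidase gene Suox, the last step to sulfate, differed by -0.03 (SE 0.13), and Cdo1, the first step of cysteine oxidation, by -0.01 (SE 0.13).

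Of 7 sulfate transporter genes 3 were positive, with a median of -0.06. Slc26a1, the sulfate exchanger of the hepatocyte membrane, differed by -0.06 (SE 0.14, limma adjusted p = 0.912). The largest statistics were those of Slc26a10 (-0.32), Slc13a1 (0.22) and Slc13a4 (0.32), the last 2 being sodium-sulfate cotransporters and Slc13a1 dim.

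Of 18 Golgi enzymes that sulfate proteins and glycans 8 were positive, with a median of -0.03. Gal3st1, which makes sulfatide, read 4.03, 4.56 and 4.40 in the knockouts and 3.69, 3.55 and 3.89 in the controls. Its groups did not overlap (difference 0.62, SE 0.17, limma adjusted p = 0.304). Chst1, of keratan sulfate, differed by -0.37 and Hs6st2, of heparan sulfate, by 0.30, both dim. A list of 11 genes held sulfatases, which undo sulfation, together with Sumf1 and Sumf2, which are not sulfatases themselves. Of the 11, 4 were positive, with a median of -0.05. Sulf2, which trims heparan sulfate outside cells, differed by -0.37, Sumf1, which activates sulfatases, by -0.30, and the lysosomal Sgsh by 0.23.

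**Figure D5:**
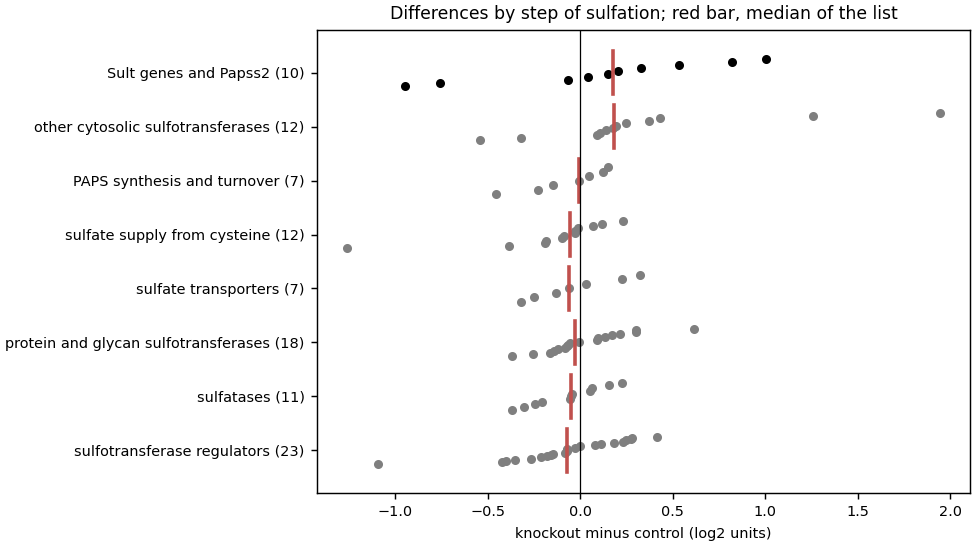
Difference between knockout and control in log2 units of every measured gene (points) of the 10 genes and of 7 lists of the sulfation pathway, with the number of genes in brackets and the list median as a red bar. List medians lie between -0.07 and 0.18, and the points farthest from 0 are those of Sult2a2, Sult2a1, Csad and Bcl6.

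Of 23 nuclear receptors and other factors known to regulate sulfotransferase genes 8 had positive differences, with a median of -0.07. Nr1i2, which encodes the xenobiotic receptor PXR, read 6.39, 6.30 and 6.44 in the knockouts and 6.66, 6.75 and 6.99 in the controls. Its groups did not overlap, and the difference was -0.42 (SE 0.14, limma adjusted p = 0.348). Hnf4a, a master factor of hepatocytes, read 9.32, 9.24 and 9.52 in the knockouts and 9.74, 9.66 and 9.75 in the controls, again without overlap (difference -0.36, SE 0.13, limma adjusted p = 0.399). For Hnf4a, as for Sult2a8, knockout replicate 2 was lowest and knockout replicate 3 nearest to the controls. Csad had that order too, and a link between Hnf4a and Sult2a8 was not tested. Bcl6, a repressor with male-biased expression in liver, read 4.63, 5.02 and 4.63 in the knockouts and 4.68, 6.92 and 5.95 in the controls. Control replicate 1 lay among the knockout arrays, and the difference of -1.09 (SE 0.45) had a limma adjusted p of 0.439. Next by statistic were Ahr (-0.40, SE 0.17, limma adjusted p = 0.450) and Stat5b (0.41, SE 0.18, limma adjusted p = 0.454), both without overlap. The members with smaller statistics included Nr1i3, the receptor CAR (-0.16, SE 0.15), Nr1h4, the bile acid receptor FXR (-0.08, SE 0.14), and Ppara, the fatty acid receptor (-0.26, SE 0.13, limma adjusted p = 0.507).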

How the data were processed

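Liver RNA was hybridised as biotinylated cRNA, prepared from 100 ng per sample, on 6 arrays, per the labels' protocols. The submitters' processing notes name RMA and Affymetrix Expression Console 1.4.1, and the deposited table holds the authors' log2 values of 41345 probe sets. Because RMA brings the probe intensities of all arrays to the same distribution, it hides a shift of most transcripts. The deposited probe set values still differed slightly in distribution, with array medians from 3.11 to 3.16. No genome build is given for the table in the sources used here.

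Of the probe sets, 23521 had 1 symbol in the platform annotation, 1814 had several and 16010 were not named there. For the 1082 genes with several probe sets the one with the highest mean was used, which left 22180 genes. Differences were fitted by limma 3.58.1 (lmFit, eBayes; R 4.3.3) without covariates or a filter, and 2-sided p-values were adjusted over all genes by the Benjamini-Hochberg method (threshold 0.05). Exact permutation tests are 2-sided. The fit was tested on simulated data. Fold changes are 2 to the power of the difference.

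The 10 genes and all lists were chosen with earlier results of these data known. Tested genes were found for 90 of 97 pathway list entries and 119 of 126 marker list entries. In each pathway list the 3 genes with the largest moderated statistic are named, with relatives of Sult2a8, Sult3a1 and Sult1c2. Other genes named there were chosen after their values were seen, for their role or, for Ahr and Stat5b, as next by statistic. Summed levels are the log2 of the sum of linear signals. Alternatives were centring on array medians, further quantile normalization, leaving out dim genes, an intensity trend or robust variance prior, a replicate block, array weights, the mean of all probe sets of a gene, and leaving out each array. Separate animals are not stated for the replicates, so the spread behind the p-values may be technical. Identical arrays were looked for and 0 pairs found. With 3 arrays per group the precision is limited.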

Additional observations from a re-analysis of the deposited data

How the results depend on the processing

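Of 127 differences of the 10 genes under 13 alternatives (12 for the 3 dim genes), 121 kept their direction and their side of the threshold. Leaving out dim genes, the intensity trend, the robust prior and the replicate block do not alter a difference. Under those, the direction was kept by construction and only the side of the threshold could change. Sult3a1 and Sult5a1 passed it without knockout replicate 3, and 4 changed sign: leaving out each array gave -0.084 to 0.17 for Sult1a1 (3 of the sign changes) and -0.22 to 0.12 for Sult2b1, and outside the 10 genes -0.023 to 0.27 for Sult1c1. The count of the 10 genes past an adjusted p of 0.05 was 0 to 2 with an array left out, that of the pathway genes 0 to 1, that of the marker genes 0 to 19 and that of all genes 0 to 66, each highest without knockout replicate 3. Over all genes 15 passed when dim genes were left out and 25 with an intensity trend, and of the marker genes 3 and 6. Groups did not overlap in 4 of the 10 genes after centring (16.7% of all genes) and in 3 after further quantile normalization (16.1%), a count added after seeing the data. The cause of these changes was not tested.

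Replicate numbers showed no strong pairing of the arrays: deviations of same-numbered arrays correlated at 0.006, 0.053 and 0.015. Arrays of different numbers correlated at -0.046 to 0.029. Values this small do not decide whether a weak pairing exists. With the replicate block 1 gene of all genes passed, which is in the marker lists (1), and 0 of the 10 genes. With that block 5 of the 10 genes lay at an unadjusted p under 0.05 in limma. The main fit had 4, where 10.5% of all genes did. Array weights, leaving out knockout replicate 3 and leaving out control replicate 1 also gave 5. The share of all genes was counted in the main fit only. No gene of the 10 has a second probe set with 1 symbol, so the mean over probe sets equals the reported value by construction and is not counted above, and the planned comparison with other probe sets gave no value. Levels under or near the table median limit Sult3a1, Sult1e1, Sult2b1, Sult1b1, Sult1c2 and most relatives.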
